A study of Homo sapiens with 6 samples.

Results

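The genes of respiratory complex I were followed in U266, a human multiple myeloma cell line. The members were the 55 protein-coding genes among 57820 gene rows whose symbol marks a nuclear complex I subunit or assembly factor (the NDUF gene families, 48 genes) or a complex I subunit encoded by mitochondrial DNA (the MT-ND genes, 7 genes). In 3 MYC samples the U266 cells carried lentiviral C-MYC behind the EF1A promoter, and these were set against 3 Control samples of the same cell line. Whether the Control cells hold an empty vector, how many clones each line comes from and whether the samples are separate cultures is not given in the sources used here, so the p-values measure only the spread between these samples. Poly-A RNA was sequenced in bulk, and in such data fewer cells of a type and less RNA per cell cannot be told apart. All 55 members passed the filter on low counts and were tested.

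Complex I takes electrons from NADH and passes them to ubiquinone while it pumps protons across the inner mitochondrial membrane. Its matrix arm holds the N module, where NADH is oxidised at a flavin and electrons enter a chain of iron-sulfur clusters, and the Q module, where ubiquinone is reduced. Its membrane arm holds the proton-pumping core subunits encoded by mitochondrial DNA, and both arms carry nuclear accessory subunits and need dedicated assembly factors. MYC is a transcription factor that binds E-box sequences in many promoters, nuclear genes of mitochondrial proteins among them.

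Library depth, as summed expected counts, was between 27139978 and 158667309, with both extremes in MYC samples. MYC itself had 105, 110.3 and 92.0 CPM (counts scaled to a common library total with TMM factors) in the MYC samples, against 3.91, 4.16 and 4.51 CPM in the Control samples, a log2 fold change of 4.60 ± 0.10 (SE, edgeR adjusted p = 9.71e-08). All 7 plasma cell markers looked at were detected in this plasma cell line. Their summed level was 1977 to 2206 CPM in MYC and 3142 to 3361 CPM in Control samples. Of the 7, 5 were called lower, where 32.1% of all genes tested were. Markers of other cell types stayed low: the 4 T and NK cell markers summed to 10.8 to 13.1 CPM in MYC and 7.94 to 10.3 CPM in Control samples, and the 4 epithelial markers to 6.64 to 7.70 CPM in MYC and 3.82 to 4.63 CPM in Control samples. The 4 myeloid markers summed to 2.22 to 2.78 CPM in MYC and 2.36 to 2.88 CPM in Control samples, and the 4 stromal markers to 2.10 to 2.76 CPM in MYC and 4.34 to 5.82 CPM in Control samples. Of these lists 2, 2, 3 and 3 genes averaged under 1 CPM in both groups, in the order given, and the stromal gene LUM was at 0 in all 6 samples. The part of these marker differences in the results below was not tested. Across all genes the fold changes followed the GC content of the transcripts, so fold changes are also given from a fit with a GC offset, which takes each library's trend of log2 CPM on GC content out.

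The nuclear members did not move one way. Of 48, 17 were higher in MYC samples, where 28.8% of the 17679 genes tested were called higher, and 15 were lower, where 32.1% were called lower (edgeR quasi-likelihood test, Benjamini-Hochberg adjusted p under 0.05). These shares of the members lie near the background in both directions, and 16 members were not called. The median log2 fold change of the 48 members was 0.13, beside -0.02 over all genes tested. The increases were small, none above a log2 fold change of 0.67 among called members, while the decreases reached -3.00. In CPM, 17 nuclear members lay higher in every MYC sample than in any Control sample and 15 lay lower, where 32.1% and 35.1% of all genes tested did so. With the GC offset 12 were higher and 11 lower (26.4% and 31.6% of all genes tested), with a median of 0.03 beside -0.05 over all genes. Of the 17 members called higher, 6 were also called higher with the offset and 11 were not called. Of the 15 called lower, 9 were also called lower, 5 were not called and 1, NDUFAF3, was called higher. In every fit in which they were tested, NDUFA5, NDUFA8, NDUFAF6, NDUFB3 and NDUFS5 were called higher and NDUFB7, NDUFS7, NDUFA4L2, NDUFV1, NDUFA7, NDUFC2, NDUFA2 and NDUFB2 were called lower.

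**Figure D1:**
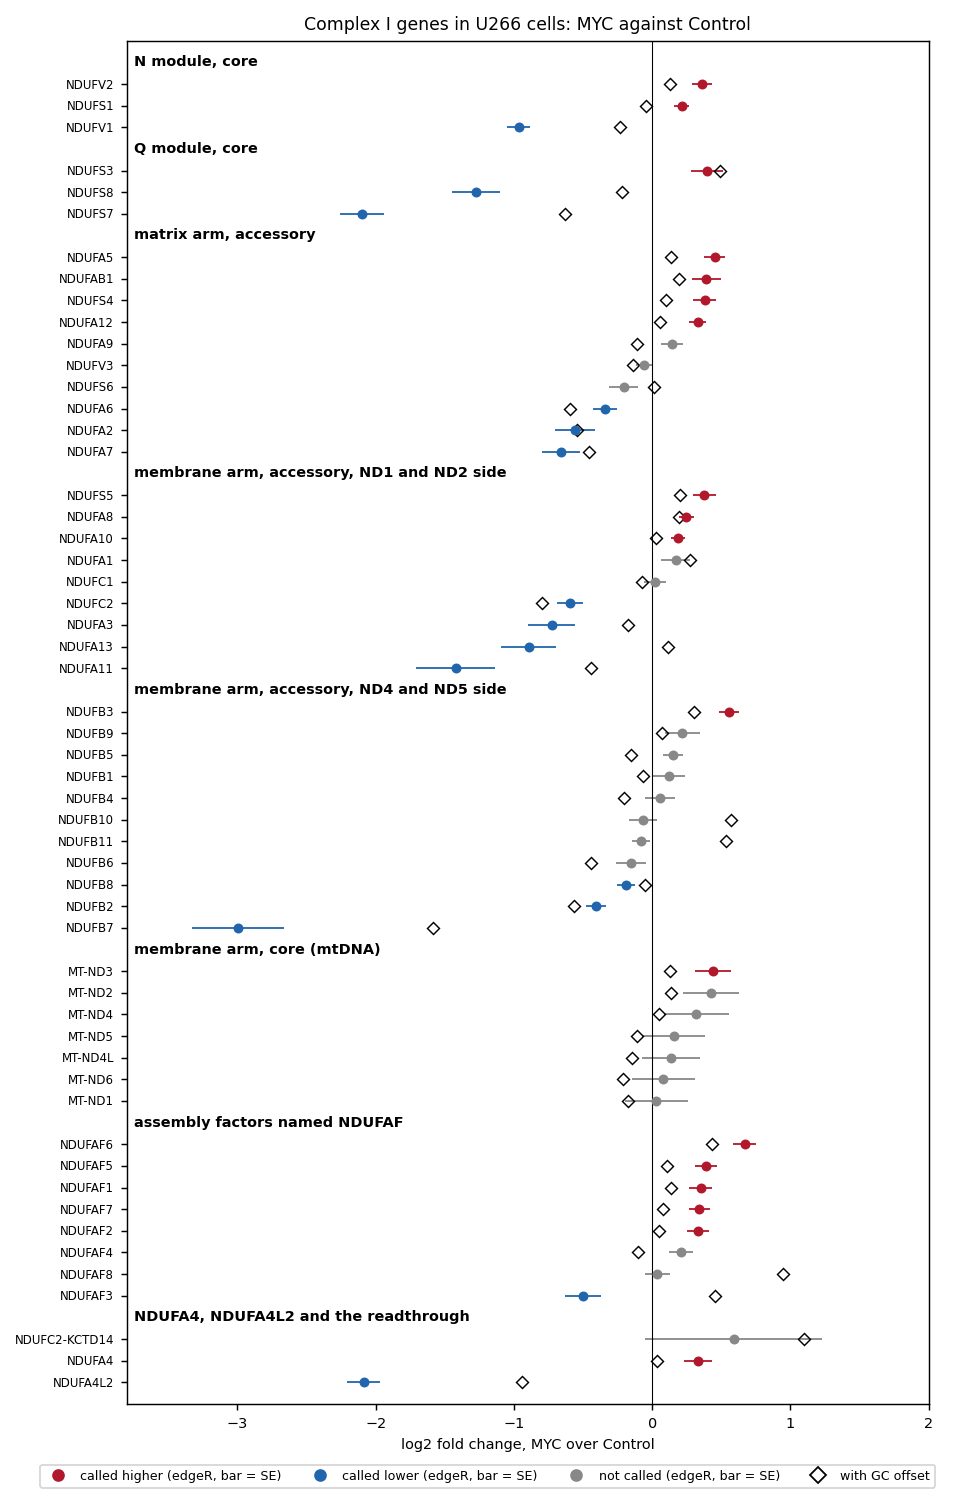
Log2 fold change of MYC over Control for complex I genes, grouped by role. Dots with bars are the edgeR estimate and its SE (red, called higher; blue, called lower; grey, not called), and open diamonds are the estimates with a GC offset. Dots of called increases stay within 0.67 while NDUFB7 reaches -3.00, and the diamonds of the genes with the largest decreases lie nearer to 0.

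The promoters were read for the E-box, since it is the sequence that MYC binds. RefSeq windows on GRCh38.p14, from 250 bases before to 50 bases after the gene start, were matched for 40 of the 48 nuclear members. The letters CACGTG, which read the same on both strands, were found in 4 of these 40 windows (10.0%), beside 7.256% of all 35116 windows in the table. NDUFA11, NDUFA7 and NDUFS7, called lower, and NDUFAF5, called higher, held them, which is 3 of the 13 matched members called lower, 1 of the 14 called higher and 0 of the 13 not called. The 250 bases before the start of these genes are shown 5′ to 3′ on the gene's strand, with the E-box letters in capitals. They lie at chr19:5903791-5904040 (minus strand), chr19:8321376-8321625 (minus strand), chr19:1383657-1383906 (plus strand) and chr20:13784778-13785027 (plus strand), and the first E-box base stands at -132, -120, -187 and -126 from the start, in that order.
NDUFA11: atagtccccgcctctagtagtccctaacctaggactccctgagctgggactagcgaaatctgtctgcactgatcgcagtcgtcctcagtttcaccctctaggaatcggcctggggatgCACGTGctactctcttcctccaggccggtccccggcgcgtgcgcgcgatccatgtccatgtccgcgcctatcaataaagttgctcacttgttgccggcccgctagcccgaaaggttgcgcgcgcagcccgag
NDUFA7: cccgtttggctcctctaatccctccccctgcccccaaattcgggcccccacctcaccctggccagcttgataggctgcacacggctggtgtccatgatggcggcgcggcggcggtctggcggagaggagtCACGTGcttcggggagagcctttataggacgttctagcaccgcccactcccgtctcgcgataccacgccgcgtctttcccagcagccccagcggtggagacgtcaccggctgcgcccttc
NDUFS7: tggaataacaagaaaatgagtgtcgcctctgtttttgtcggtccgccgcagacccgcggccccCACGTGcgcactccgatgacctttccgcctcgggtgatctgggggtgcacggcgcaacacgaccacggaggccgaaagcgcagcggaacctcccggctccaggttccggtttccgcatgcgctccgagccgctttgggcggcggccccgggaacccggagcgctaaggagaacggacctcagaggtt
NDUFAF5: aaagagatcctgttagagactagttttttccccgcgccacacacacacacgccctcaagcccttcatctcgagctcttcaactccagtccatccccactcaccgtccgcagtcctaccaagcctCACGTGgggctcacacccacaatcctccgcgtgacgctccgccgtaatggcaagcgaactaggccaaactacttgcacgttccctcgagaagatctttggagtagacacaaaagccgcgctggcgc
The letters CCGGAAG, the core bound by ETS factors such as GABPA, stood on either strand in 6 of 40 members (15.0%, beside 10.26% of all windows), namely NDUFA1, NDUFA13, NDUFAF4, NDUFB7, NDUFS1 and NDUFS3. The letters GCATGCG, part of the site of NRF1, a regulator of respiratory genes, stood on either strand in 7 of 40 (17.5%, beside 3.907%), and 2 of these were called higher, 2 lower and 3 not called. The set of all windows was not limited to expressed genes or to windows of like GC content, so it is an unlike background for the members. A letter match describes the window only, and binding was not measured.

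In the N module core, NDUFV1 was lower in MYC samples, and NDUFV2 and NDUFS1 were called higher by small amounts before the GC offset was applied. NDUFV1, the subunit that binds the flavin and oxidises NADH, had 94.6, 84.7 and 75.3 CPM in the MYC samples, against 161, 170.0 and 165 CPM in the Control samples. The groups lay far apart, and the level in MYC samples was 1.95-fold lower (log2 fold change -0.96 ± 0.08, edgeR adjusted p = 2.88e-05). It was 1.17-fold lower with the GC offset and still called. NDUFV2, an iron-sulfur subunit beside it, had 124, 127 and 122 CPM in the MYC samples, against 107, 93.9 and 89.0 CPM in the Control samples. All MYC samples stood above all Control samples, 1.29-fold (edgeR adjusted p = 0.00255), and the call ended with the GC offset (log2 fold change 0.13). NDUFS1, the largest subunit and carrier of several iron-sulfur clusters, had 174, 179 and 171 CPM in the MYC samples, against 157, 147 and 148 CPM in the Control samples. Its groups did not overlap, with a small difference of 1.16-fold (edgeR adjusted p = 0.00789). The GC offset turned this to -0.05 on the log2 scale, not called, and the call also ended without Control replicate 3 (adjusted p = 0.0506) and without an expression filter (0.0806), so no direction is given for it.

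In the Q module core, NDUFS7 and NDUFS8 were lower and NDUFS3 was higher. NDUFS7, which holds the last iron-sulfur cluster before ubiquinone, had 13.3, 10.8 and 7.96 CPM in the MYC samples, against 45.7, 48.4 and 41.4 CPM in the Control samples. Every MYC sample lay below every Control sample, with MYC replicate 3 the lowest, and the difference was 4.29-fold (log2 fold change -2.10 ± 0.16, edgeR adjusted p = 1.78e-05). The GC offset left NDUFS7 1.55-fold lower and still called. NDUFS8, the other iron-sulfur subunit of the module, had 26.4, 22.5 and 15.1 CPM in the MYC samples, against 51.2, 55.5 and 46.9 CPM in the Control samples. It followed the same order of groups, 2.42-fold lower in MYC samples (log2 fold change -1.27 ± 0.17, edgeR adjusted p = 0.000309), and its call ended with the GC offset (log2 fold change -0.22, adjusted p = 0.055). NDUFS3, a scaffold subunit without a cluster, had 66.0, 73.2 and 54.1 CPM in the MYC samples, against 47.3, 54.6 and 45.1 CPM in the Control samples. Control replicate 2 lay above MYC replicate 3, so the groups overlapped, and NDUFS3 was called 1.32-fold higher (edgeR adjusted p = 0.0168). That call held with the GC offset (log2 fold change 0.49) but ended without MYC replicate 2 (adjusted p = 0.0731), Control replicate 1 (0.0656) or Control replicate 3 (0.073).

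The N and Q core genes could also be set side by side as levels per transcript length, in TPM (the deposited values, scaled for length and depth). NDUFV2 averaged 226 ± 7.71 TPM in MYC and 177 ± 21.8 TPM in Control samples (SD, n = 3 each), and NDUFV1, its partner in the flavoprotein, 102 ± 3.75 TPM in MYC and 189 ± 1.94 TPM in Control samples. In MYC samples NDUFV2 thus stood above NDUFV1 in every library, while in Control samples the ranges of both genes overlapped. NDUFS7 averaged 13.3 ± 4.85 TPM in MYC and 84.6 ± 8.13 TPM in Control samples, the lowest mean TPM of the nuclear core genes in MYC samples. These TPM values carry no GC offset, and the GC content was 59.9% for NDUFV1, 46.4% for NDUFV2 and 65.3% for NDUFS7. With the offset NDUFV1 was 1.17-fold and NDUFS7 1.55-fold lower, and NDUFV2 was not called.

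Of the 10 accessory subunits of the matrix arm, 4 were higher, 3 were lower and 3 were not called (28.8% higher and 32.1% lower over all genes tested). With the GC offset 1 was higher and 4 were lower, where the all-gene shares were 26.4% and 31.6%. NDUFA5, a subunit of the Q module side, had 87.2, 93.4 and 101 CPM in the MYC samples, against 74.1, 64.2 and 67.8 CPM in the Control samples. All MYC samples exceeded all Control samples, by 1.37-fold (edgeR adjusted p = 0.00102), and by 1.10-fold with the GC offset, where it was still called. NDUFAB1, the mitochondrial acyl carrier protein, which also serves fatty acid synthesis, had 44.9, 47.5 and 42.4 CPM in the MYC samples, against 38.6, 35.2 and 29.2 CPM in the Control samples. The groups did not overlap, the difference was 1.31-fold (edgeR adjusted p = 0.01), and the call ended with the GC offset (log2 fold change 0.20). NDUFS4, whose loss destabilises the N module, and NDUFA12 were higher by log2 fold changes of 0.38 and 0.33, and both calls ended with the offset (0.10 and 0.05). NDUFA6, the LYR protein that anchors acyl carrier protein on this arm, had a log2 fold change of -0.34, NDUFA2 of -0.56 and NDUFA7 of -0.66. These decreases were also called with the GC offset, at -0.60, -0.54 and -0.46. The call of NDUFA6 ended with the effective length offset (log2 fold change -0.16, adjusted p = 0.145). NDUFA7 overlaps RPS28 and NDUFA2 overlaps IK on the other strand, and reads of such pairs could not be told apart here. Other called members also overlap expressed genes on the other strand, with CPM by library totals given as means of all 6 samples. Among them were NDUFB3 (FAM126B, 114), NDUFB2 (BRAF, 102), NDUFS3 (CELF1, 172), NDUFS1 (EEF1B2, 537) and NDUFAF7 (PRKD3, 685). On the same strand NDUFS3 overlaps PTPMT1 (36.8) and NDUFA13 overlaps YJEFN3 (37.9). NDUFA9, NDUFS6 and NDUFV3 were not called, with log2 fold changes of 0.14, -0.21 and -0.06. With the GC offset they had -0.11, 0.02 and -0.14, and NDUFV3 was called lower there (adjusted p = 0.0167). NDUFS6 was called lower on log2(TPM + 1) (adjusted p = 0.0486), without an expression filter (0.0341) and without MYC replicate 1 (0.0377), and NDUFA9 was called higher without MYC replicate 3 (0.0224).

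Of the 9 accessory subunits of the membrane arm beside ND1 and ND2, 3 were higher, 4 were lower and 2 were not called. The all-gene shares were 28.8% higher and 32.1% lower. With the GC offset 3 were higher and 1 was lower, beside 26.4% and 31.6% of all genes tested. NDUFA11, which sits where the membrane modules join, had 73.2, 53.9 and 28.2 CPM in the MYC samples, against 135, 159 and 119 CPM in the Control samples. The groups stood apart although the MYC samples spread widely, with MYC replicate 3 lowest, and the difference was 2.68-fold (log2 fold change -1.42 ± 0.29, edgeR adjusted p = 0.00263). The call ended with the GC offset (log2 fold change -0.44, adjusted p = 0.0661). NDUFA13, also known as GRIM19, had a log2 fold change of -0.89, which the GC offset turned to 0.11, not called, so no direction is given for it. NDUFA3 was lower by a log2 fold change of -0.73, which came to -0.17 with the offset and was not called there. NDUFC2 was lower in both fits, at -0.59 and -0.80. NDUFS5 and NDUFA8, on the intermembrane space face, were higher at 0.38 and 0.25, and were also called with the offset (0.20 and 0.19). NDUFA10 was higher at 0.19, and its call ended with the offset (0.02), on log2(TPM + 1), without an expression filter and without Control replicate 3 (adjusted p = 0.057). NDUFA1, at 0.17, and NDUFC1, at 0.02, were not called. With the GC offset NDUFA1 was called higher at 0.27 (adjusted p = 0.0211), as it was without Control replicate 2 (0.0237), and NDUFC1 was not called at -0.08.

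Of the 11 accessory subunits beside ND4 and ND5, all of the NDUFB family, 1 was higher, 3 were lower and 7 were not called. The all-gene shares were 28.8% higher and 32.1% lower. With the GC offset 3 were higher and 3 lower, beside 26.4% and 31.6% of all genes tested. NDUFB7, a subunit on the intermembrane space face, had 6.35, 5.64 and 1.99 CPM in the MYC samples, against 39.7, 39.4 and 31.3 CPM in the Control samples. This was the largest decrease of any member, 7.98-fold, with all MYC samples far below all Control samples and MYC replicate 3 the lowest (log2 fold change -3.00 ± 0.33, edgeR adjusted p = 0.000101). With the GC offset NDUFB7 was 3.00-fold lower and still called, and without MYC replicate 3 its log2 fold change was -2.64. NDUFB3, a small membrane subunit, had 45.1, 48.8 and 48.2 CPM in the MYC samples, against 34.0, 33.6 and 29.3 CPM in the Control samples. Its groups did not overlap, and it was 1.47-fold higher (edgeR adjusted p = 0.000292), or 1.23-fold with the GC offset, where it was still called. NDUFB2 was lower at -0.41, and at -0.57 with the offset. NDUFB8, a subunit often used as a readout of assembled complex I, was lower at -0.19 (edgeR adjusted p = 0.0314), a call that ended with the GC offset (-0.05), with the effective length offset, with the replicate block and without any one of MYC replicates 2 and 3 or Control replicates 2 and 3. The genes not called were NDUFB1, NDUFB4, NDUFB5, NDUFB6, NDUFB9, NDUFB10 and NDUFB11. Their log2 fold changes ran from -0.15 to 0.22. NDUFB10 and NDUFB11, at -0.06 and -0.08, turned with the GC offset to 0.57 and 0.53, both called higher there, and NDUFB6 was called lower at -0.44. NDUFB1, NDUFB4 and NDUFB5 turned to values below 0 (-0.07, -0.20 and -0.15) that were not called there. With the effective length offset NDUFB1 and NDUFB5 were called higher and NDUFB6 lower, and NDUFB9 was called higher with the replicate block and without MYC replicate 3.

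**Figure D2:**
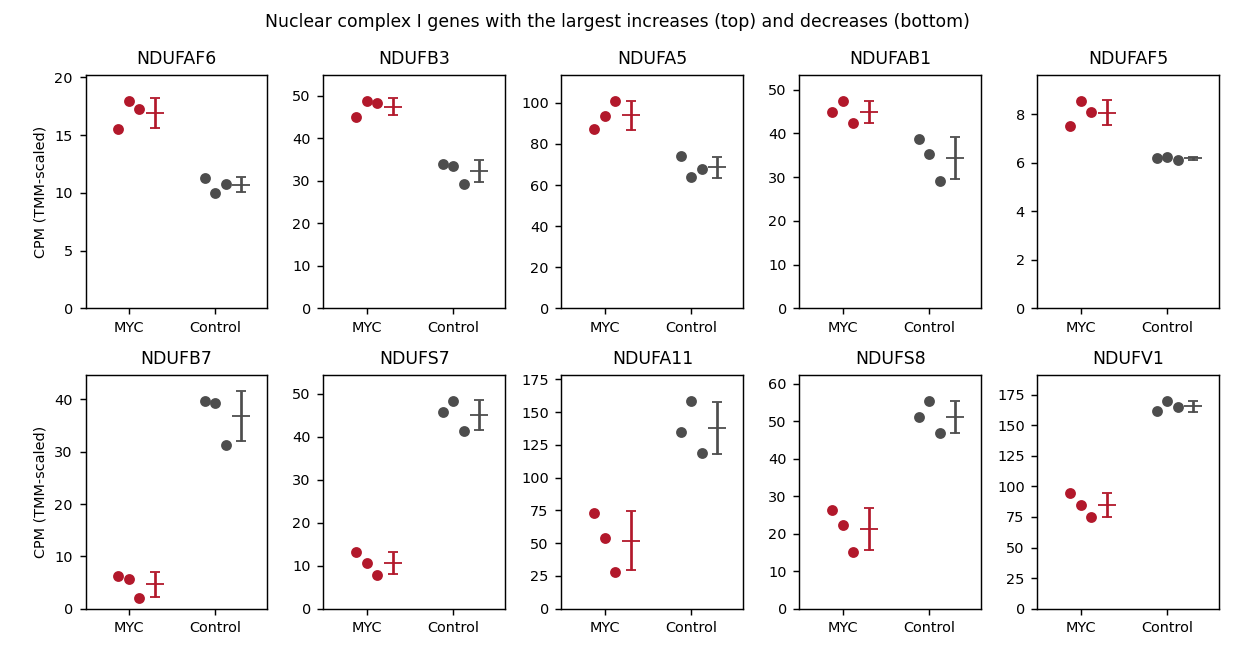
CPM in each of 3 MYC (red) and 3 Control (grey) samples for the 5 nuclear members with the largest increases and the 5 with the largest decreases among called genes whose mean CPM was 5 or more and whose groups did not overlap. The bars beside the points are mean and SD, and each axis starts at 0. NDUFB7 lies between 1.99 and 6.35 CPM in MYC samples and between 31.3 and 39.7 CPM in Control samples, while the increases are 1.31-fold to 1.59-fold.

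Of the 8 assembly factors named NDUFAF, 5 were higher, 1 was lower and 2 were not called (28.8% higher and 32.1% lower over all genes tested). With the GC offset 3 were higher, NDUFAF3, NDUFAF6 and NDUFAF8, and 0 lower, where the all-gene shares were 26.4% and 31.6%. NDUFAF6, which is needed for early assembly around ND1, had 15.5, 18.0 and 17.2 CPM in the MYC samples, against 11.3, 10.0 and 10.7 CPM in the Control samples. It had the largest increase of the called members, 1.59-fold with no overlap between the groups (log2 fold change 0.67 ± 0.08, edgeR adjusted p = 0.000205), and 1.35-fold with the GC offset, where it was still called. NDUFAF5, which hydroxylates an arginine of NDUFS7, had 7.52, 8.56 and 8.07 CPM in the MYC samples, against 6.17, 6.23 and 6.12 CPM in the Control samples. Its groups stood clearly apart at a low level, 1.31-fold (edgeR adjusted p = 0.00314), and the call ended with the GC offset (log2 fold change 0.11). Its client NDUFS7 was called lower with and without the GC offset, and NDUFAF5 was called higher only without it. No opposite direction is therefore given for this pair. NDUFAF8, the partner of NDUFAF5, was not called at 0.04. NDUFAF8 was called higher at 0.94 with the GC offset and at 0.40 with the effective length offset. NDUFAF1, a member of the complex that builds the ND2 module, was higher at 0.35, NDUFAF2, a paralogue of NDUFA12, at 0.33, and NDUFAF7, a protein arginine methyltransferase, at 0.34. The calls of these 3 genes ended with the GC offset, at 0.14, 0.05 and 0.08, and that of NDUFAF7 also on log2(TPM + 1) (adjusted p = 0.0536). NDUFAF3 and NDUFAF4 work together on the Q module. NDUFAF4 was not called, at 0.21, or at -0.10 with the GC offset, while DESeq2, limma-voom, RLE factors, the effective length offset and the fit without Control replicate 1 called it higher. NDUFAF3 had a log2 fold change of -0.50 (edgeR adjusted p = 0.0103) which the GC offset turned to 0.45 (adjusted p = 0.000151), so no direction is given for NDUFAF3.

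The other 3 nuclear members carry the name without being established subunits of the complex. NDUFA4, now assigned to complex IV, was higher at 0.33 (edgeR adjusted p = 0.0188), a call that ended with the GC offset (0.03) and without MYC replicate 2 or Control replicate 3. NDUFA4L2, its hypoxia-inducible paralogue, had 1.10, 1.15 and 0.993 CPM in the MYC samples, against 4.28, 5.05 and 4.55 CPM in the Control samples. It was low in both groups and 4.25-fold lower in MYC samples (edgeR adjusted p = 4.95e-06), or 1.92-fold with the GC offset, where it was still called. It overlaps SHMT2 on the other strand, which had 648 CPM on average over all 6 samples, and the library kit does not mark strand. The readthrough transcript NDUFC2-KCTD14 averaged 0.310 CPM in MYC and 0.222 CPM in Control samples and was not called, except without Control replicate 2 (log2 fold change 1.72, adjusted p = 0.0282), and it shares exons with NDUFC2.

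The nuclear members' fold changes followed the GC content of their transcripts. Over the 48 genes Pearson's r was -0.70 and Spearman's rho -0.65, and over 17202 genes tested they were -0.45 and -0.56, a description across genes that share the same 6 libraries. The members' values were -0.10 and -0.07 with the GC offset, which by design takes out such a trend. A difference between the groups that follows GC content is taken out with it. Of the 15 members with 42 to 48% GC, 11 were higher and 2 were lower, where 44.1% and 11.3% of all tested genes of that class were. Of the 8 members with 60% GC or more, 7 were lower, where 83.8% of all tested genes of that class were, a share near that of the members. The 7 were NDUFS7, NDUFB7, NDUFA4L2, NDUFS8, NDUFA13, NDUFA11 and NDUFAF3, and the remaining member, NDUFAF8, was not called. The median log2 fold change of these 8 was -1.35, beside -1.10 for all tested genes of that class, and -0.33 and 0 with the offset. Lowest in GC content of the members called was NDUFA5, at 37.3%, and highest was NDUFS7, at 65.3%. MYC replicate 3 was the lowest library for NDUFB7, NDUFS7, NDUFS8, NDUFA11 and NDUFV1, the 5 nuclear members with the largest decreases among those with a mean CPM of 5 or more, and also for NDUFA4L2. Without it the log2 fold changes of the first 5 were -2.64, -1.94, -1.08, -1.13 and -0.89, and all were still called.

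**Figure D3:**
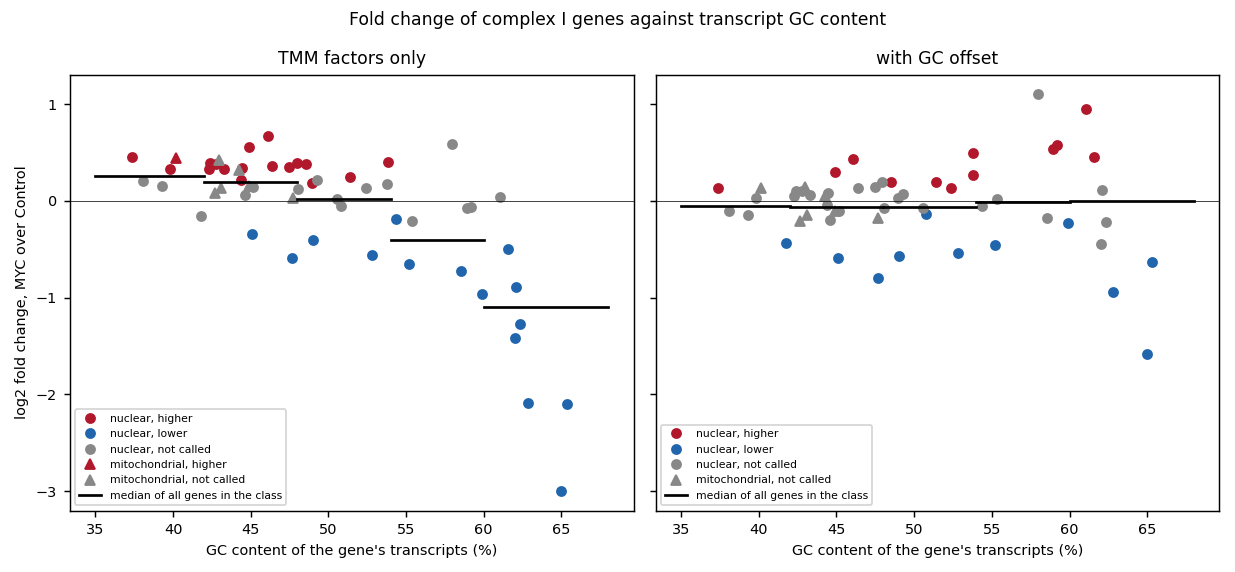
Log2 fold change of MYC over Control against GC content of the transcripts (%), for 48 nuclear (circles) and 7 mitochondrial (triangles) complex I genes, coloured by call. Black lines are medians of all tested genes in each GC class, and the right panel shows the fit with a GC offset. On the left the members fall with the class medians, down to a class median of -1.10 at 60% GC and over. On the right no such slope is seen (Pearson's r -0.10 over the nuclear genes), where the offset by design takes out the trend on GC content.

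Of the chromosomes with 4 or more members, 2 held members called in one direction and 2 held members called in both. Chromosome 19 held 6 members, NDUFA11, NDUFA13, NDUFA3, NDUFA7, NDUFB7 and NDUFS7, and all 6 were called lower, where 54.6% of the 1274 tested genes of that chromosome were. Their median GC content was 62.0%. With the GC offset 3 of the 6 were called lower, beside 28.9% of the chromosome's genes. Chromosome 2 held 4 members, NDUFA10, NDUFAF7, NDUFB3 and NDUFS1, all called higher, where 35.5% of its 1133 tested genes were, and NDUFB3 was the member also called with the offset. Of the 5 members on chromosome 11, 1 was higher and 3 were lower, where 25.8% and 37.5% of its tested genes were. Of the 4 on chromosome 5, 2 were higher and 1 was lower, where 36.4% and 21.2% of its tested genes were.

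The deposited effective length, which depends on the isoforms that RSEM finds, differed between the groups for some members, so that CPM and TPM differ in size. NDUFC2 had a mean effective length of 839.9 bases in MYC and 525 bases in Control samples, and was 1.51-fold lower by mean CPM and 2.48-fold lower by mean TPM. NDUFS7 had 1062 bases in MYC and 696 bases in Control samples, and was 4.24-fold lower by mean CPM and 6.38-fold lower by mean TPM. NDUFS8 differed in the other direction, with 227 bases in MYC and 379 bases in Control samples, and was 2.40-fold lower by mean CPM and 1.51-fold lower by mean TPM. All 3 were thus lower on both scales. With the effective length offset 21 nuclear members were higher and 14 lower (27.3% and 28.3% of all genes tested), and on log2(TPM + 1) with limma 18 were higher and 17 lower (21.3% and 29.7%).

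The 7 MT-ND genes encode the membrane core, and they were the most abundant members per length. Their mean levels ran from 926 to 3845 TPM in MYC and from 844 to 3114 TPM in Control samples. The highest nuclear member differed between the groups and lay below them in each: NDUFS5 at 447 TPM in MYC and NDUFA11 at 491 TPM in Control samples. Of the 7, 1 was called higher and 0 were called lower by edgeR (28.8% and 32.1% of all genes tested), and at an unadjusted p under 0.05 the counts were also 1 and 0, as with DESeq2 and limma-voom. MT-ND3 had 233, 310.3 and 343 CPM in the MYC samples, against 199, 224 and 233 CPM in the Control samples. All MYC samples lay above all Control samples, the closest pair nearly level, and MT-ND3 was 1.35-fold higher (log2 fold change 0.44 ± 0.13, edgeR adjusted p = 0.0185). The call ended with the GC offset (log2 fold change 0.13, adjusted p = 0.336) and without MYC replicate 2 (adjusted p = 0.0642), Control replicate 1 (0.0965) or Control replicate 2 (0.0529). Without an expression filter 3 MT-ND genes were called higher and 0 lower, where 15.3% and 18.7% of the 32620 genes then tested were.

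MT-ND1, which together with Q module subunits forms the ubiquinone channel, had 1124, 1019.6 and 1486 CPM in the MYC samples, against 793, 1227 and 1539.5 CPM in the Control samples. MT-ND2, the first antiporter-like subunit, had 1577, 1711 and 2286 CPM in the MYC samples, against 1009, 1396 and 1743 CPM in the Control samples. MT-ND4, a proton-pumping subunit of the distal arm, had 3277, 2866 and 4356 CPM in the MYC samples, against 1872, 2875 and 3666 CPM in the Control samples. In these genes MYC replicate 3 and Control replicate 3 were the highest of their groups and the groups overlapped. MT-ND4L, which overlaps MT-ND4 on the same transcript, had 226, 225 and 252 CPM in the MYC samples, against 135, 238 and 267 CPM in the Control samples. MT-ND5, the distal pump, had 1075, 1009 and 1398 CPM in the MYC samples, against 689, 1065 and 1373 CPM in the Control samples. MT-ND6, the member encoded on the other DNA strand, had 247, 232 and 368 CPM in the MYC samples, against 188, 276 and 337 CPM in the Control samples. The groups again overlapped, and Control replicate 1 was the lowest of all 6 samples in all 7 MT-ND genes. The library kit does not mark strand, so reads on MT-ND6 could not be told from transcripts of the opposite strand at that place. The MT-ND sums and the ratio include these reads. The fitted log2 fold changes of MT-ND2 and MT-ND4 were 0.43 ± 0.20 (edgeR adjusted p = 0.0976) and 0.32 ± 0.24 (edgeR adjusted p = 0.27). MT-ND2 was called higher with the replicate block (0.44, adjusted p = 0.00345), without an expression filter (0.000467) and without Control replicate 3 (0.0274), and MT-ND4 without an expression filter (0.0239). Those of MT-ND5, MT-ND4L, MT-ND6 and MT-ND1 were 0.15, 0.14, 0.08 and 0.03. With the GC offset the median over the 7 genes was -0.11 and MT-ND1, MT-ND4L, MT-ND5 and MT-ND6 had values below 0, so no direction is given for these transcripts. Pseudogene rows of MT-ND2 held 3.30% of the reads of gene and copies together, and those of the other MT-ND genes at most 0.016%.

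**Figure D4:**
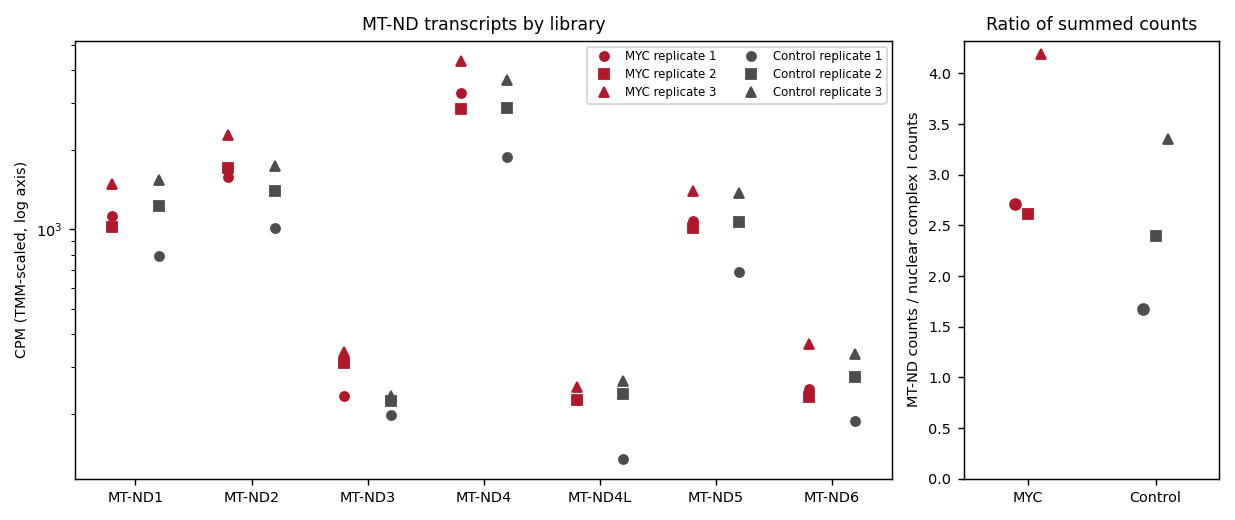
Left, CPM of the 7 MT-ND genes (log axis) in each MYC (red) and Control (grey) sample, with a marker for each replicate number. Right, the ratio of summed MT-ND counts to summed counts of the 48 nuclear members in each sample. MYC replicate 3 and Control replicate 3 are the highest of their groups in all 7 genes, and the ratios run from 2.61 to 4.20 in MYC and from 1.67 to 3.35 in Control samples.

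The MT-ND transcripts varied between replicates more than the nuclear ones. Their median coefficient of variation was 20.2% in MYC and 31.6% in Control samples, beside 7.58% in MYC and 8.12% in Control samples over the 48 nuclear members. The 7 genes moved largely together from library to library. All 7 were highest in replicate 3 of either group, and all 7 were lowest of the Control samples in replicate 1. Of the MYC samples, replicate 2 was lowest for 5 genes and replicate 1 for the other 2, MT-ND2 and MT-ND3. The highest library was 1.12 to 1.59 times the lowest in MYC and 1.17 to 1.99 times in Control samples. Summed over the 7 genes, MT-ND reached 7760.0, 7373 and 10491 CPM in the MYC samples, against 4885, 7301 and 9159 CPM in the Control samples. Summed over the 48 nuclear members the level was 2866, 2820 and 2500.4 CPM in the MYC samples, against 2918, 3045 and 2734 CPM in the Control samples. MYC replicate 3 thus had the highest MT-ND sum and the lowest nuclear sum of all 6 samples. The ratio of MT-ND to nuclear counts was 2.71, 2.61 and 4.20 in the MYC samples, against 1.67, 2.40 and 3.35 in the Control samples, and the groups overlapped. Its log2 value averaged 1.63 ± 0.38 in MYC and 1.25 ± 0.50 in Control samples (SD, n = 3 each). The difference of 0.38 is within 1 SD of the Control samples (0.50) and about as large as the SD of the MYC samples (0.38). It was 0.16 without MYC replicate 3, 0.13 without Control replicate 1 and 0.63 without Control replicate 3.

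Genes that work with complex I were read from lists, with counts given beside the all-gene shares of 28.8% higher and 32.1% lower. For the counts with the GC offset, here and in the lists below, these shares were 26.4% and 31.6%. Of 15 other complex I assembly factors 8 were higher and 3 lower (6 and 2 with the GC offset), with a median log2 fold change of 0.26. TMEM126B, of the ND2-module assembly complex, averaged 49.2 ± 1.36 CPM in MYC and 32.5 ± 2.01 CPM in Control samples (SD, n = 3 each, edgeR adjusted p = 9.11e-05), and COA1 and TMEM126A were higher at 0.46 and 0.47. ECSIT, a partner of NDUFAF1 in that complex, was lower at -0.98 (edgeR adjusted p = 0.000659), but was not called with the GC offset (-0.02). Of 15 iron-sulfur cluster assembly genes 8 were higher and 5 lower (4 and 3 with the offset), with a median of 0.22. GLRX5, a mitochondrial glutaredoxin that hands on iron-sulfur clusters, averaged 24.9 ± 0.610 CPM in MYC and 17.7 ± 1.23 CPM in Control samples (edgeR adjusted p = 0.000462). FDX2, a ferredoxin, and IBA57 were lower at -1.28 and -0.74, and with the offset at -0.03, not called, and -0.25, called.

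Of 18 genes of mitochondrial transcription and its regulators 11 were higher and 3 lower (8 and 4 with the GC offset), with a median of 0.26. LRPPRC, which stabilises mitochondrial mRNAs, averaged 409 ± 17.8 CPM in MYC and 245 ± 19.6 CPM in Control samples (edgeR adjusted p = 5.36e-05), and the coactivator PPARGC1B was higher at 0.67. POLRMT, the mitochondrial RNA polymerase, was lower at -1.52 (edgeR adjusted p = 0.000213) and at -0.25 with the offset, where it was still called. ESRRA, a nuclear receptor of respiratory genes, had -0.90 and turned with the offset to 0.57, called higher, so no direction is given for it. Of the 6 other mitochondrially encoded proteins 0 were called by edgeR in either direction, also 0 at an unadjusted p under 0.05 and 0 with DESeq2 or limma-voom, with a median of 0.30.

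Of 38 nuclear subunits of complexes II to V, 22 were higher and 4 lower (17 and 4 with the GC offset), with a median of 0.28 beside 0.02 for the 37 nuclear subunits of complex I, of which 11 were higher and 13 lower (9 and 10 with the offset). The difference between these lists was not tested. UQCRC2, a core protein of complex III, averaged 113 ± 2.60 CPM in MYC and 70.2 ± 0.821 CPM in Control samples (edgeR adjusted p = 1.37e-05), and ATP5F1C and ATP5PB of the ATP synthase were higher at 0.63 and 0.58. ATP5F1D, the delta subunit of the ATP synthase, was lower at -2.05 (edgeR adjusted p = 0.0001), a call that ended with the offset (-0.25). Of 10 tested NADH and ROS enzymes beside complex I, 2 were higher and 2 lower (2 and 3 with the GC offset). NNT, the transhydrogenase of the inner membrane, averaged 199 ± 1.11 CPM in MYC and 147 ± 4.94 CPM in Control samples (edgeR adjusted p = 0.000132), and GPD2, the mitochondrial glycerol phosphate dehydrogenase, was higher at 1.58, from a low level. NDOR1, a flavoprotein reductase of cytosolic iron-sulfur assembly, and AIFM2, an oxidoreductase that protects from ferroptosis, were lower at -1.82 and -0.55. All 4 were called in the same direction with the GC offset.

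**Figure D5:**
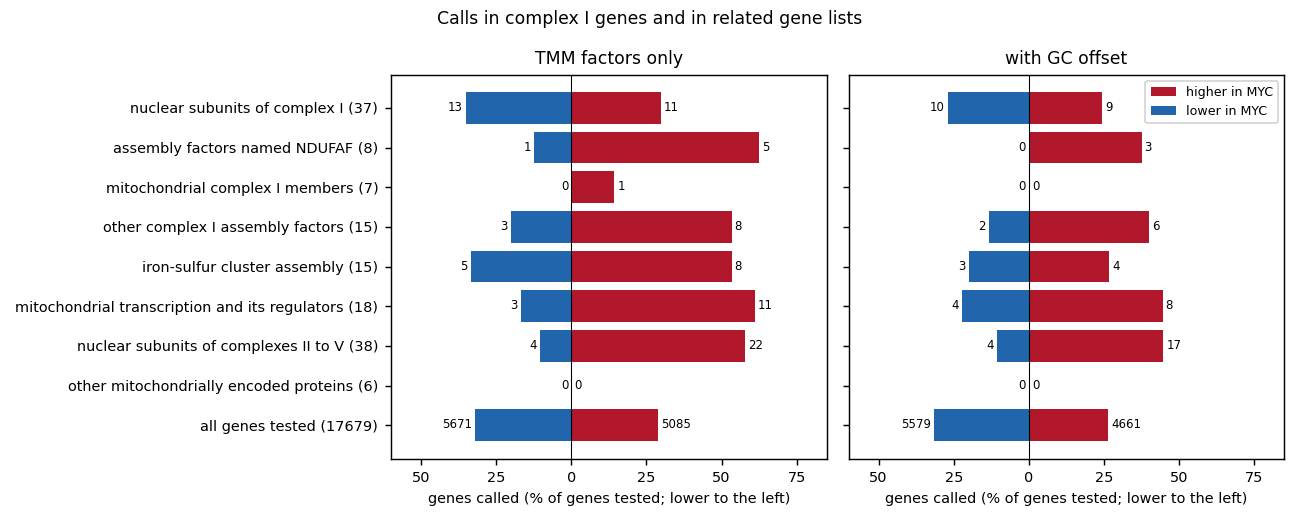
Share of tested genes called higher (red, right) and lower (blue, left) in MYC samples for the complex I genes by kind, for related lists and for all 17679 genes tested, with the number of genes called at each bar and the number tested in brackets. The right panel shows the fit with a GC offset. The nuclear subunits of complex I split into 11 higher and 13 lower, and those of complexes II to V into 22 and 4.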

How the data were processed

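Per the labels' protocols, libraries were made from the poly-A fraction of column-purified RNA by a kit without strand marking. Reads went through cutadapt and TopHat2 on build GRCh37, per the submitters' processing notes (versions and annotation not given in the sources used here). The authors deposited, per the file headers, an RSEM table for each library with an expected count (reads shared out between similar genes), a TPM scaled for length and depth, and an effective length for each gene. Without strand, overlapping and antisense genes could not be told apart.

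After rounding, expected counts were fitted in R 4.3.3 with the quasi-likelihood F test of edgeR 4.0.16 (TMM factors, group as the only term, edgeR's default filter on low counts, Benjamini-Hochberg adjustment over 17679 genes, called at an adjusted p under 0.05). The SE of a log2 fold change derives from the F statistic. The fits were tested on simulated counts. The GC offset takes out each library's loess trend (span 0.4, prior count 0.5) of log2 CPM on GC content. This was the mean over the GENCODE 29 transcripts whose ids, without version, the deposited data list for the gene. It was found for all 55 members. With 3 against 3 samples an exact permutation test cannot go below p = 0.1, so none was used. Reads have no molecular identifiers, so the spread between libraries is the error given. Counts of libraries of 1 group differed by more than sampling noise (chi-square over degrees of freedom 8.64 to 42.4), and 51996 identifiers matched a symbol.

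The members, roles, lists and tests were chosen with earlier results of these data known. Per-sample values are given for nuclear core genes, the 7 MT-ND genes and, among called nuclear members whose mean CPM was 5 or more and whose groups did not overlap, the 5 with the largest increase and the 5 with the largest decrease, and for NDUFA4L2, chosen after its values were seen. Up to 4 called genes per list are named by smallest adjusted p; 1 of the 11 NADH and ROS symbols had no match. Some single genes that these rules name are not reported here. The alternatives were RLE factors, library totals, totals of nuclear genes, DESeq2 1.42.0, limma-voom, limma-trend (limma 3.58.1) of TPM after adding 1 or 0.1 and taking log2, no filter, mean CPM of at least 5, offsets for effective length and GC content, a replicate block, and each library left out.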

Additional observations from a re-analysis of the deposited data

How the results depend on the processing

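The nuclear counts stayed within 1.5 times of the main counts in every alternative, from 12 (GC offset) to 21 (effective length offset) higher and from 11 (GC offset) to 17 (TPM scales) lower, and from 13 to 20 higher and from 14 to 17 lower with 1 library left out. The count of MT-ND genes called higher was 3 without an expression filter, 0 with the GC offset, 2 with the replicate block and 0 to 2 with 1 library left out, and that of genes called lower was 0 in every alternative. The log2 ratio difference of 0.38 was 0.45 from TPM sums and 0.13 to 0.63 with 1 library left out. Among nuclear members called in the main fit, with the GC offset or in both, 5 turned direction with that offset. NDUFS1 had -0.048 with the GC offset and -0.049 with that offset plus the replicate block. In the same order NDUFB10 had 0.57 and 0.57, NDUFB11 0.53 and 0.53, NDUFAF3 0.45 and 0.45, and NDUFA13 0.11 and 0.10. NDUFB5 turned in both of these fits as well (-0.15 in each) and was called lower with the block. For 7 nuclear members the sign turned with the GC offset, while neither the main fit nor that with the GC offset called them. Of these, NDUFA9, NDUFAF4, NDUFB1, NDUFB5 and NDUFS6 were called in other alternatives, and NDUFB4 and NDUFC1 in none. The causes were not tested.

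The replicate numbers were not taken to pair the samples, since the labels do not say that they do. Deviations of same-numbered samples correlated at -0.05, 0.08 and 0.11. MYC replicates 2 and 3 correlated best with the Control sample of the same number, and MYC replicate 1 with Control replicate 2, at 0.10. These values do not settle whether the samples are paired. The replicate block gave 18 nuclear members higher and 14 lower, and with the GC offset 15 and 14. The shallowest library had 27139978 counts, and a limit set by depth was not tested for single members. The effect of transduction was not separated from that of MYC, and RNA levels say nothing here of protein or of complex I activity.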
